A study of Mus musculus with 2 samples.

Results

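The enzymes of the tryptophan-kynurenine pathway were followed in the postpartum brain of TDAG51-deficient dams. The members were the probes that the arrays name Indo (now Ido1), Tdo2, Kmo, Kynu, Haao or Afmid. These 6 genes were selected on their measured log2 ratios on both arrays, whose values were already known, so the values below are a description and carry no test. The rule found 5 of the 6 genes among 27962 gene names, with 8 of 41174 probes. No probe was named Haao, and a probe that only the description column assigns to Haao is given apart, outside the rule. In 3 genes (Indo, Tdo2 and Afmid, with 5 probes) the signal was well above background in a channel of each array by the scanner's own mark, whereas Kmo and Kynu were not well above background in any of the 4 channels.

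The study examined TDAG51 (gene symbol Phlda1), a transcription regulator, for its role in maternal care. Whole-brain total RNA came from C57BL/6J females 8 weeks old, collected at P0, the day of parturition. One array set TDAG51-/- dams, which lack TDAG51, against wild-type TDAG51+/+ dams. The other set TDAG51-/- dams against TDAG51-/-Tg2 dams, which lack the endogenous gene too and carry a TDAG51 transgene of a single line, Tg2, driven by the brain-specific BAI1-AP4 promoter. The TDAG51-/- sample was labelled with Cy3 on both arrays and the control with Cy5. Each comparison was made on 1 array without a dye swap, and the number of dams behind each sample was not stated. Nothing here measures how much animals of a genotype vary, so no p-value is given, and a dye bias of a probe cannot be told apart from a difference between genotypes. Both comparisons share the TDAG51-/- genotype and are given side by side.

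Most tryptophan that is not built into protein is broken down through kynurenine. Indoleamine 2,3-dioxygenase (Ido1), which interferon-gamma induces in many cells, and tryptophan 2,3-dioxygenase (Tdo2), best known from liver, catalyse the same first step. Arylformamidase (Afmid) releases kynurenine, which kynurenine 3-monooxygenase (Kmo), kynureninase (Kynu) and 3-hydroxyanthranilate dioxygenase (Haao) carry on towards quinolinic acid and NAD. Aminotransferases instead turn kynurenine into kynurenic acid, and a separate branch from tryptophan leads to serotonin.

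The probes behind the detected members are printed 5′ to 3′ in lower case, because every ratio below rests on these letters. No part is capitalised. The pair of Tdo2 probes is shown whole. Their positions on chromosome 3 of mm7, minus strand, span 1278 bases (82073120 to 82074397) and 3011 bases (82068883 to 82071893) for probes of 60 bases, so each crosses an intron and lies across joined exons.
Tdo2 probe 1: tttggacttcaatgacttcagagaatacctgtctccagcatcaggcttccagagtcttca
Tdo2 probe 2: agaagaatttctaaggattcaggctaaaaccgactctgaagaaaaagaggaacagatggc
For the other probes the first 30 of 60 bases are shown, since an annotation of mm7 was not used here and their place in exon or UTR is not known.
Indo: tctatcagggcacagaaaacaccttcatcc
Afmid probe 1: cgtcaagagcagagggaaagattggcagtg
Afmid probe 2: cctgtgtgtagcaggctctaccagacctga
Haao-annotated: ggcctgttaatgtgtgtcatcacctcttgt
The Indo probe lies on chromosome 8 (23370259 to 23370318, minus strand). The Afmid probes lie on chromosome 11, plus strand, at 117945633 to 117945692 for probe 1, which was designed on the cDNA BC024452, and at 117948461 to 117948520 for probe 2, designed on NM_027827. The Haao-annotated probe lies on chromosome 17 (82125656 to 82125715, minus strand). The longest run of bases shared with a probe of another gene name on the array, on either strand, was 13 for Indo, for both Afmid probes and for the Haao-annotated probe, 16 for Tdo2 probe 1 and 14 for Tdo2 probe 2.

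The 2 Cy3 channels carry the same label, and 93 of 23139 gene names (0.402%) were at least 2-fold apart between them after normalization, with a robust SD of 0.15 on the log2 scale over 22285 gene names above background in both. Some genes stood apart. The Cy3 intensity of Phlda1 was 350.5 on the array with TDAG51+/+ and 44.1 on the array with TDAG51-/-Tg2, where it was not well above background. The brightest Hbb-b1 probe, for a haemoglobin chain, had Cy3 intensities of 9175 and 56950. Whether both channels held the same RNA is not stated. For the targeted gene, Phlda1 gave 7283 in TDAG51+/+ brain, a log2 ratio of -4.11. In TDAG51-/-Tg2 brain it gave 50.5, not well above background, so the probe did not detect the transgene, and whether the transgene holds the probe's sequence is not known. All 6 neuronal markers were well above background on both arrays.

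Indo was the member with a large difference. The TDAG51-/- sample gave an intensity of 144 beside 1836 for TDAG51+/+ brain. On the second array it gave 168 beside 1643 for TDAG51-/-Tg2 brain. Both TDAG51-/- channels were low and both control channels high, and all 4 were well above background, over local backgrounds of 41.0 to 48.0. The log2 ratio of TDAG51-/- over TDAG51+/+ was -3.45, a level 10.9-fold lower. The ratio over TDAG51-/-Tg2 was -2.97, or 7.86-fold lower. The scanner software gave larger differences, -4.10 with an error of 0.44 from its model of the spot and -3.52 with an error of 0.39, both on the log2 scale. The offset of 50 added to each channel here draws dim signals together.

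**Figure D1:**
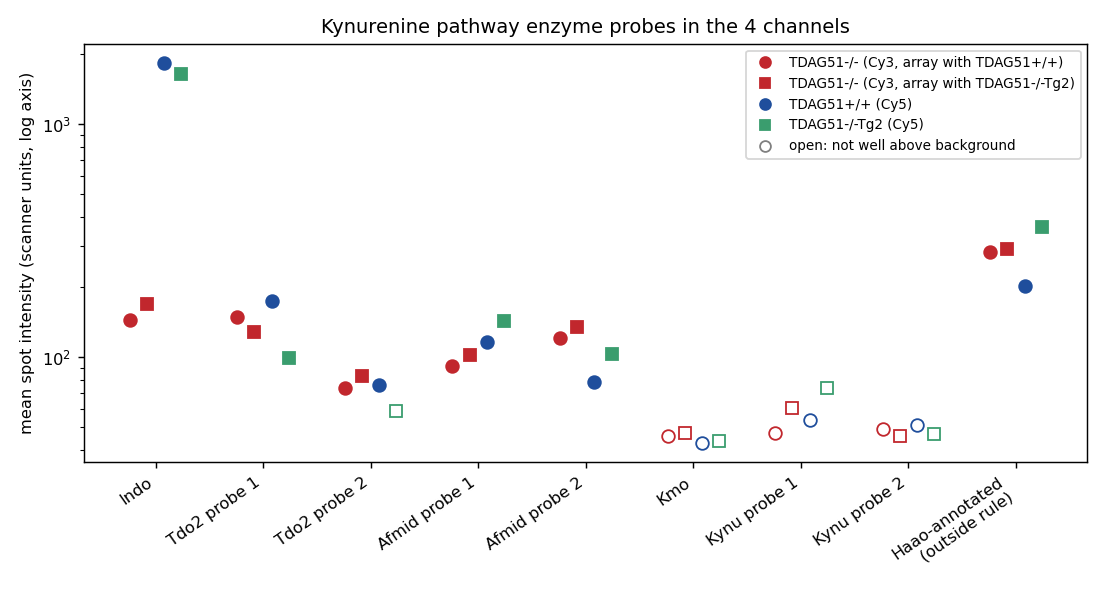
Mean spot intensity (scanner units, log axis) of each member probe and of the Haao-annotated probe in the 4 channels, 1 point per channel, with open points not well above background. Indo lies at 144 and 168 in the TDAG51-/- channels and at 1836 and 1643 in the controls, whereas all Kmo and Kynu points are open.

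A gene was called at a 2-fold difference, the threshold of the study's methods, using the brightest of its probes. Of the members, 1 gene (Indo) was lower and 0 were higher than in TDAG51+/+ brain, where 4.64% of 23378 gene names were called lower and 4.88% higher. Against TDAG51-/-Tg2, again 1 was lower and 0 were higher, where 3.97% of 22900 gene names were lower and 4.72% higher. Since these contrasts chose the members, nothing is read from the counts. As a description by these same values, 10 gene names had a lower ratio than Indo against TDAG51+/+, and 22 against TDAG51-/-Tg2.

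**Figure D2:**
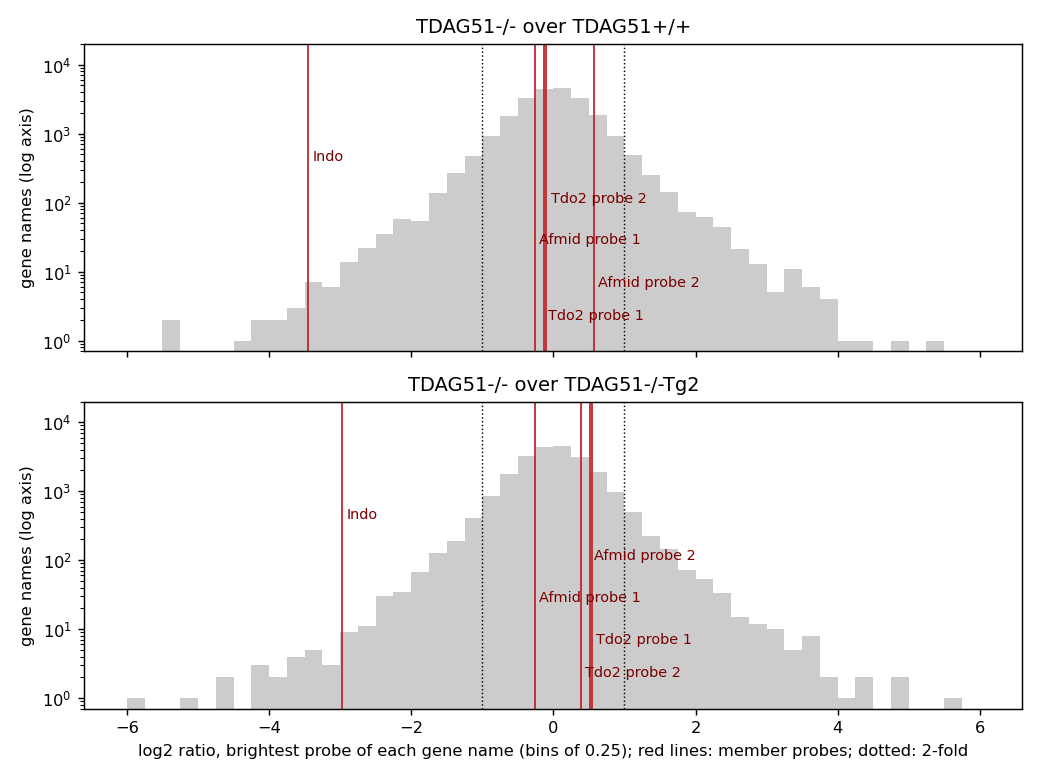
Distribution of the log2 ratio over gene names (brightest probe each, bins of 0.25, log count axis) in each comparison, with the detected member probes as red lines and the 2-fold limits dotted. Indo lies far in the lower tail at -3.45 and -2.97, and the plotted ratios of the Tdo2 and Afmid probes lie inside the 2-fold limits, where that of Tdo2 probe 2 against TDAG51-/-Tg2 rests on a control channel not well above background.

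For Tdo2, which catalyses the same first step as Ido1, the fitted ratios stayed under 2-fold with the reported processing. Probe 1 had intensities of 148.5 in TDAG51-/- and 173.9 in TDAG51+/+ brain, and of 128.4 in TDAG51-/- and 98.7 in TDAG51-/-Tg2 brain. The log2 ratios were -0.13 and 0.54, or 1.09-fold lower and 1.45-fold higher. The TDAG51-/-Tg2 channel was the lowest of the 4 and the TDAG51+/+ channel the highest. Probe 2 had 73.5 and 76.0 on the first array, a log2 ratio of -0.10. On the second array it had 82.7 in TDAG51-/- brain and 58.8 in TDAG51-/-Tg2 brain, the latter not well above background, so TDAG51-/- was at least 1.105-fold higher. Both probes thus had opposite signs in the comparisons, and both were dim. With the scanner's own ratio, probe 1 passed 2-fold against TDAG51-/-Tg2 (1.20, error 0.29, log2). Probe 2 had 2.68 there (error 0.66, log2), with its control channel not well above background. The deposited log2 ratios against TDAG51-/-Tg2 were 1.14 for probe 1 and 2.38 for probe 2. The size of the Tdo2 difference there thus depends on the processing. As markers of liver, the tissue best known for Tdo2, Alb, Ahsg and Cyp2e1 were not well above background in any channel. The other 4 measured liver markers had medians of 0.74 and 0.63. Of them, 0 were called against TDAG51+/+, and 2 were higher and 0 lower against TDAG51-/-Tg2. Over all gene names, 4.72% were higher and 3.97% lower against TDAG51-/-Tg2. The summed signal of the list was 1667 and 1844 in TDAG51-/-, 1068 in TDAG51+/+ and 1117 in TDAG51-/-Tg2 brain. The part of the liver markers in the Tdo2 values was not tested.

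Afmid, which releases kynurenine from formylkynurenine, gave opposite signs from its probes. Probe 1 had 91.6 in TDAG51-/- and 116.4 in TDAG51+/+ brain, and 101.7 in TDAG51-/- and 143 in TDAG51-/-Tg2 brain. Its log2 ratio was -0.26 in both comparisons, so both TDAG51-/- channels were below their controls. Probe 2 had 121 in TDAG51-/- against 77.8 in TDAG51+/+ brain, and 134.2 against 103.3 in TDAG51-/-Tg2 brain. Its log2 ratios were 0.56 and 0.52, and both TDAG51-/- channels were above their controls. No direction can be given for the gene. With the scanner's ratio, probe 2 reached 1.28 against TDAG51+/+, past 2-fold.

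The enzymes after kynurenine were poorly measured. The Kmo probe had intensities of 42.6 to 47.2 over the 4 channels. The Kynu probes had 47.2 to 73.8 (probe 1) and 45.9 to 50.8 (probe 2). None was well above background, so no fold is given, and a difference was not detectable at these signals. The Haao-annotated probe, outside the rule, had 282.5 in TDAG51-/- and 201 in TDAG51+/+ brain, and 290.7 in TDAG51-/- and 363.4 in TDAG51-/-Tg2 brain. Its log2 ratios were 0.54 and -0.10, under 2-fold in both.

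The Cy5 channels of the arrays, scaled to each other, set TDAG51-/-Tg2 against TDAG51+/+ brain. Indo was lower in TDAG51-/-Tg2 by a log2 difference of -0.23, of about the size by which its TDAG51-/- channels differed (0.25). Tdo2 probe 1 differed by -0.87, a level 1.83-fold lower in TDAG51-/-Tg2, where the TDAG51-/- channels differed by -0.21. Afmid differed by 0.13 (probe 1) and 0.22 (probe 2). No member was at least 2-fold apart, against 7.67% of 22654 gene names.

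Ido2, which encodes a related dioxygenase and is the protein-coding gene next to Ido1 in the RefSeq annotation, was nearly level in both comparisons. It gave 3555 in TDAG51-/- beside 4387 in TDAG51+/+ brain, and 3246 beside 4081 in TDAG51-/-Tg2 brain, with log2 ratios of -0.01 and -0.03. The 6 nearest protein-coding genes, 3 on each side of Ido1, were all measured. None was 2-fold apart against TDAG51+/+, and 1 was against TDAG51-/-Tg2 (Adam5, -1.43).

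The aminotransferases that make kynurenic acid were listed with Ido2, and the ratio of 0 of these 5 genes passed 2-fold in either comparison. The list medians were -0.01 and 0.70. Aadat, one of the aminotransferases, had 141.7 in TDAG51-/- and 123.1 in TDAG51+/+ brain, a log2 ratio of 0.23. On the second array it had 143.3 in TDAG51-/- and 71.7 in TDAG51-/-Tg2 brain, the latter not well above background, so TDAG51-/- was at least 1.83-fold higher. The scanner's own log2 ratio there was 2.845. Kyat3 had log2 ratios of -0.68 and 0.70 and Kyat1 0.31 and 0.70. Of the genes listed around NAD, which include Acmsd and Nampt, 0 of 9 passed against TDAG51+/+ and 0 of 8 against TDAG51-/-Tg2. Among them Qprt, which uses quinolinic acid, had 0.65 and 0.44. Over all gene names, 4.64% were called lower and 4.88% higher against TDAG51+/+, and 3.97% and 4.72% against TDAG51-/-Tg2. Nothing is read from 0 calls in lists of this size.

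The serotonin branch held some larger ratios, with Tph2 the highest in both comparisons. Of 6 measured genes, 1 was at least 2-fold higher against TDAG51+/+ and 3 against TDAG51-/-Tg2, and 0 were lower. Over all gene names, 4.88% were higher against TDAG51+/+ and 4.72% against TDAG51-/-Tg2. The medians were 0.29 and 0.73 beside 0.01 for all gene names in both comparisons. Tph2, the rate-limiting enzyme of serotonin synthesis in neurons, had 775 in TDAG51-/- and 122.3 in TDAG51+/+ brain, and 795.2 in TDAG51-/- and 353.1 in TDAG51-/-Tg2 brain. Its log2 ratios were 2.60 and 1.36, and both TDAG51-/- channels were the higher. Ddc, which completes the synthesis, had 0.50 and 1.30, but its dimmer probe had 0.05 and -0.43, so the call against TDAG51-/-Tg2 rests on 1 of 2 probes. Maoa, which degrades serotonin, had 0.63 and 1.17 from its single probe. Tph1, the form of the pineal gland and gut, had -0.07 and -0.80. Markers of the hindbrain moved alongside: 5 of 8 were at least 2-fold higher against TDAG51+/+ and 6 of 8 against TDAG51-/-Tg2. Their summed signal above background was 4470 and 4665 in TDAG51-/-, 692.3 in TDAG51+/+ and 725.9 in TDAG51-/-Tg2 brain. Their part in the serotonin values was not tested.

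Of 15 genes that act upstream of Ido1 or mark interferon-gamma signalling, 12 were measured. By the brightest probe of each, 0 were called against TDAG51+/+ (median 0.17). Against TDAG51-/-Tg2, 1 was lower (Ciita, the class II transactivator, -1.21) and the median was 0.03. Ifng itself, Tnf and Cxcl9 were not well above background in any channel. Irf1, an interferon-induced transcription factor, had 0.26 and 0.04, and its dimmer probe had the other sign against TDAG51-/-Tg2 (-0.24). Dimmer probes well above background passed 2-fold in both comparisons for 2 genes of this list. For Bin1, which the list holds as a regulator of Ido1, the brightest probe had -0.59 and -0.45, whereas the next had 1.38 and 3.19 and the dimmest 0.20 and -0.32. For Jak2, a kinase of the interferon-gamma receptor, the brightest probe had -0.36 and 0.10 and the other 1.54 and 1.25. The probes of these genes disagree, and no direction is given for either. Of the kynurenine receptors and targets of the aryl hydrocarbon receptor, 0 of 8 were called against TDAG51+/+ and 1 of 8 against TDAG51-/-Tg2 (Ahrr, the receptor's repressor, -1.74). A dimmer probe of Arnt, the receptor's partner, had 1.03 against TDAG51-/-Tg2, where the brightest had 0.70. Of the tryptophan transporters, 0 of 5 were called against TDAG51+/+ and 1 of 5 against TDAG51-/-Tg2 (Slc16a10, 1.11, where a dimmer probe of the gene gave 0.10). Over all gene names, 4.64% were called lower and 4.88% higher against TDAG51+/+, and 3.97% and 4.72% against TDAG51-/-Tg2. In lists of this size, nothing is read from 0 or 1 call.

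Marker lists were set beside Indo, and they did not all move the same way. Over all gene names, 4.64% were called lower and 4.88% higher against TDAG51+/+. Against TDAG51-/-Tg2 the shares were 3.97% and 4.72%. Of 9 measured markers of striatal medium spiny neurons, 7 were at least 2-fold lower in each comparison, with medians of -1.41 and -1.54. Drd1, a dopamine receptor, had -2.44 and -2.42. The markers not called were Drd2, at 0.10 and 0.20, and Ppp1r1b, at -0.003 and -0.20. The summed signal of the list was 49800 and 47350 in TDAG51-/-, 173300 in TDAG51+/+ and 180800 in TDAG51-/-Tg2 brain. Its marker Gpr6 was not well above background. Of 10 microglial markers, 1 was lower against TDAG51+/+ and 3 against TDAG51-/-Tg2, with medians of -0.59 and -0.47. The 1 called against TDAG51+/+ (Csf1r, -1.11) had -0.11 against TDAG51-/-Tg2 and was not called there. The summed signal of the microglial list was 21130 and 19850 in TDAG51-/-, 36440 in TDAG51+/+ and 35580 in TDAG51-/-Tg2 brain. Cerebellar granule cell markers were higher, with 5 and 6 of 7 called and medians of 2.29 and 2.18. Blood markers turned between the comparisons, at medians of -1.82 and 1.02. Of these 4 markers, 3 were lower against TDAG51+/+ and 2 higher against TDAG51-/-Tg2. Of 7 leukocyte markers, 3 and 2 were higher and 0 lower, with medians of -0.08 and 0.03. Astrocyte markers had medians of 0.29 and 0.4, with 0 and 1 of 8 higher. Endothelial markers had 0.42 and 0.01, with 0 and 1 of 8 higher. Neuronal markers had -0.11 and -0.32, with 0 and 1 of 6 lower. For oligodendrocyte markers, 0 of 6 were called by the brightest probe, at -0.2 and 0.44. However, the brightest Mag probe was saturated, at the scanner's upper limit, in both channels of both arrays. Its ratio has no exact size, and the other Mag probe was at least 2-fold higher in both comparisons. Saturation touched 2 oligodendrocyte, 2 astrocyte, 2 granule cell and 1 neuronal marker on each array. On the array with TDAG51+/+ it also touched 1 blood marker. The medians and counts of these lists are limited by it. In whole brain, fewer cells of a type and less RNA per cell cannot be told apart. The part of these lists in the Indo values was not tested.

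**Figure D3:**
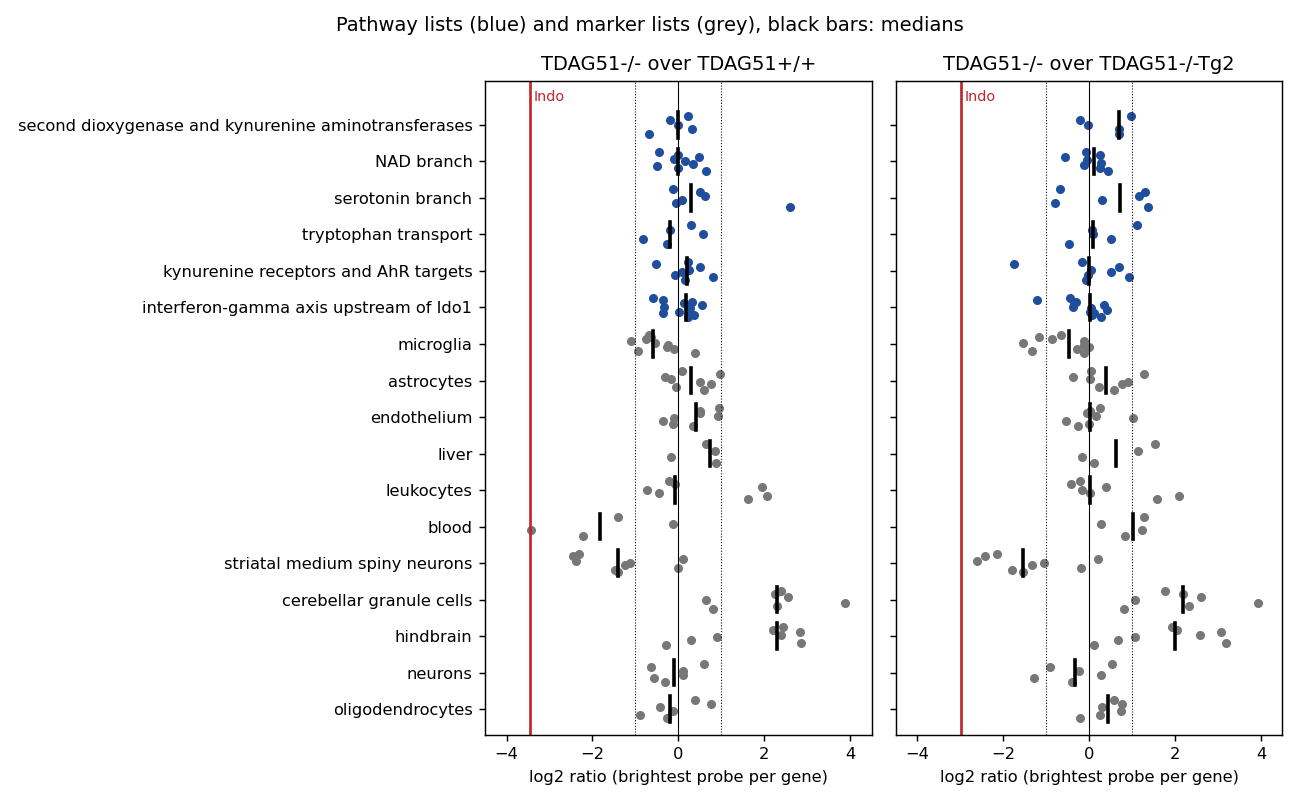
Log2 ratio of every measured gene of the pathway lists (blue) and marker lists (grey) in each comparison, 1 point per gene, with the list median as a black bar, the 2-fold limits dotted and Indo as a red line. Indo, at -3.45 and -2.97, lies below every pathway gene, and the striatal markers are the list with the lowest median against TDAG51-/-Tg2 (-1.54).

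Among 28603 other named probes measured on both arrays, the 5 whose pair of ratios lay closest to that of Indo, by the distance between both log2 ratios, were Sp8, Pcdh21, Otog, Lhx8 and D5Ertd135e. Sp8, a zinc finger transcription factor, had -3.38 and -3.17. Lhx8, a LIM homeobox factor, had -3.71 and -3.46. Likeness here is over 2 comparisons that share the TDAG51-/- genotype, and says nothing of shared control.

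**Figure D4:**
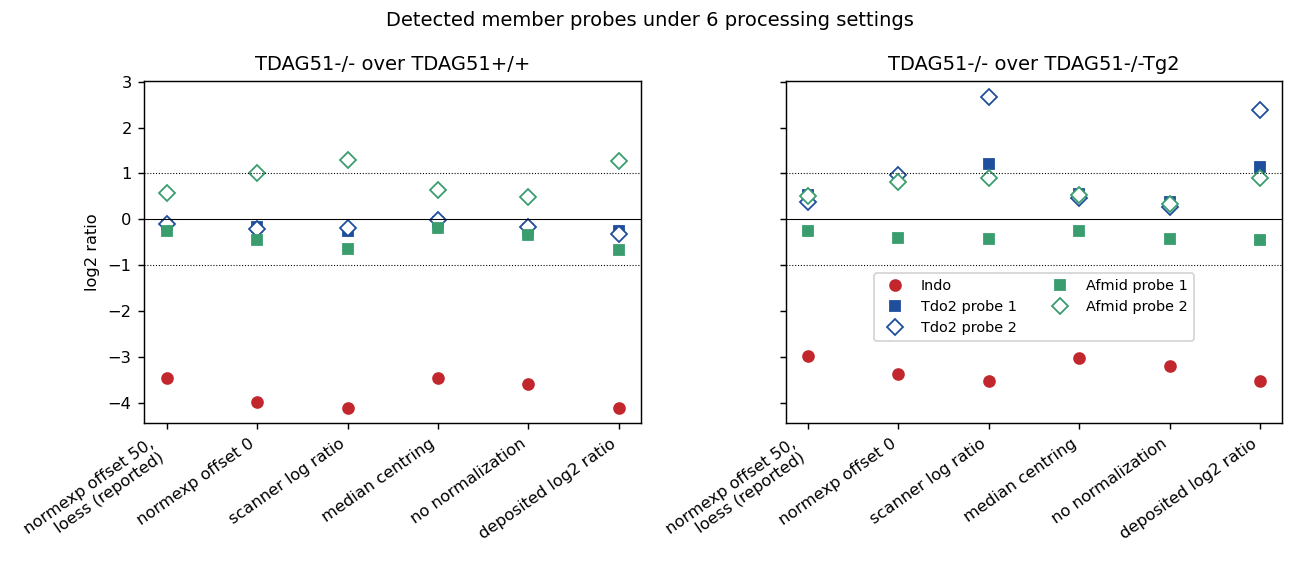
Log2 ratio of the 5 detected member probes under the reported processing and 5 alternatives, in each comparison, with the 2-fold limits dotted. Indo lies between -4.10 and -3.45 against TDAG51+/+ and between -3.52 and -2.97 against TDAG51-/-Tg2, and probe 2 of Tdo2 spreads the most, from 0.28 to 2.68, against TDAG51-/-Tg2.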

How the data were processed

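The authors deposited the output of Agilent Feature Extraction 9.5.3.1 for 2 two-colour whole mouse genome arrays, with mean intensity and median background intensity per spot and a log10 ratio of Cy5 over Cy3. A second deposited table holds log2 ratios, Cy3 against Cy5, missing for 5373 and 5457 of 41174 probes, with medians of -0.01 on both arrays. How it was normalized is not given in the sources used here. It differed from the scanner's ratio, turned the same way, by medians of 0.0059 and 0.0058.

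Here, intensities were corrected with normexp (offset 50) over all spots and then loess in limma 3.58.1 (R 4.3.3, data.table version 1.17.8). Control spots and 375 and 300 outlier spots had no weight in the loess fit and were left out of the probe averages. Spots of a probe were averaged. Channels of different arrays were compared after loess and Aquantile scaling, the latter over all spots. Tables and plots used Python 3.11.15, numpy 2.4.6, pandas 2.3.3 and matplotlib 3.10.9. Every member probe had 1 spot per array. Probes with at least 5 spots had a median SD between spots of 0.06 in each array (log2, 245 probes), which is technical. Median intensities were 338.2 (Cy3) and 363.8 (Cy5), and 336.1 and 385. Precision is limited by the number of arrays. Where 1 channel was not well above background, the fold is a lower bound: the brighter channel against the higher of the dim probe's value and the lowest value well above background in that channel.

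Probe coordinates are those of the scanner output. Older names were matched by RefSeq accession in a table of GRCm38.p6. The method was tested on simulated data. Named were all members, Phlda1, genes of the pathway lists, up to 4 markers of each list and the 5 nearest probes to Indo. Adam5, the globin Hbb-b1, Drd2, Ppp1r1b, Csf1r and Mag were named after their values were seen. Members and lists were chosen with earlier results of these data known. Listed genes that were measured but have no value in the text are included in the counts of their lists. Alternatives covered the offset, normalization, filter, threshold and choice of probe.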

Additional observations from a re-analysis of the deposited data

Results flagged for a closer look

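In 3 probes, the TDAG51-/- sample lay on opposite sides of its controls in the comparisons. Tdo2 probe 1 had log2 ratios of -0.13 and 0.54 against TDAG51+/+ and TDAG51-/-Tg2, 0.67 apart. Tdo2 probe 2 had -0.10 and a fitted 0.39, 0.49 apart, but its TDAG51-/-Tg2 channel was not well above background, so that only a bound of at least 1.105-fold higher is known there and the gap has no exact size. The Haao-annotated probe had 0.54 and -0.10, a difference of -0.64. Tdo2 probe 1 and the Haao-annotated probe were under 2-fold with the reported processing, although the scanner's log2 ratio of Tdo2 probe 1 against TDAG51-/-Tg2 was 1.20. Each comparison had 1 array, and the difference between the comparisons was not tested.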

How the results depend on the processing

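Indo was called lower in both comparisons under all 10 alternatives tried for each. Those on filter, choice of probe and the looser threshold could not change this. Indo has 1 probe, and it was well above background in every channel. Only the other offsets and normalizations could have moved the call. All 50 values of detected member probes under other offsets or normalizations had the sign reported. Of 46 counts of members under an alternative, 42 equalled those reported or lay within 1.5 times. Members higher in TDAG51-/- than in TDAG51-/-Tg2 by 2-fold or more rose from 0 to 1 (Tdo2) with the scanner log ratio and with the deposited log2 ratio. The number at least 2-fold apart between TDAG51-/-Tg2 and TDAG51+/+ rose from 0 to 1 with offset 0 and with the 1.5-fold threshold. The cause was not tested. Without normalization the median over all gene names moved from 0.01 to -0.23 against TDAG51+/+ and from 0.01 to -0.27 against TDAG51-/-Tg2. No paired analysis was possible because each comparison had 1 array. For the same reason no array could be left out. Signals near background limit Tdo2, Afmid, Kmo and Kynu. The TDAG51-/- channels of Indo were dim too, at 144 and 168, which limits the size of its fold. Over the settings that fold ranged from 10.9 to 17.2 against TDAG51+/+ and from 7.86 to 11.5 against TDAG51-/-Tg2.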
